A study of Mus musculus with 37 samples.

Results

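Crabp2 encodes a small cytosolic protein that carries retinoic acid, the active form of vitamin A, to its receptors in the nucleus. Its RNA was much lower in GV oocytes that lack Cabin1, and the question followed here is whether that difference recurs in the other RNA-seq tables and in genes that act beside it. The genes described are Crabp2 and 5 relatives by function: Crabp1, Rbp4, Stra6, Rara and Rarg. They were taken by gene symbol from the tables, and 6 of 29294 genes listed in any table are members. The table of ZH GV oocytes lists 5 of them, that of CabZ GV oocytes 3, that of CabZ 2-cell embryos all 6, and that of injected 2-cell embryos 3. The members were chosen by the difference of Crabp2 in CabZ GV oocytes, so the values of that contrast are given as a description for all members, with no test.

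The study deleted parts of the Hira complex, which places the histone variant H3.3, from mouse oocytes. ZH oocytes carry a floxed Hira allele and CabZ oocytes a floxed Cabin1 allele, each deleted by Zp3-Cre, a transgene active in growing oocytes. KO oocytes had lost both copies and Het littermates, which also carry Zp3-Cre, had lost 1, so the controls are not wild type. The floxed lines and the purchased wild-type mice were C57BL/6, and the background of the Zp3-Cre line is not stated. GV oocytes, fully grown and arrested before the first meiotic division, came from females given PMSG, at an age not given in the sources used here. CabZ Het and CabZ KO 2-cell embryos came from such females, and these names give the genotype of the oocyte. Whether the sequenced embryos were fertilised or activated without sperm is not stated, and fertilised ones would also carry a Cabin1 copy from the sperm. The fourth table holds parthenogenetic embryos from wild-type oocytes injected with Zscan4d RNA (Zscan4 OE) or GFP RNA. There were 4 libraries a group, and 3 of Zscan4 OE. The study's methods describe pooled oocytes and the sample records individual cells, and nothing ties a library to 1 animal, so p-values measure the spread between libraries, which may be technical. ATAC-seq peak lists covered GV oocytes of the CabZ line, with 3 libraries a genotype.

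Retinol travels in blood bound to Rbp4 and enters cells through the membrane receptor Stra6. Dehydrogenases oxidise it to retinoic acid, which Crabp2 delivers to the nuclear receptors Rara and Rarg, while Crabp1 is thought to hold it in the cytosol and to favour its breakdown by Cyp26 enzymes. In the ovary, retinoic acid is best known as a signal that brings germ cells into meiosis, long before the GV stage.

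All libraries held 5819265 to 21869290 reads on genes. The 12 oocyte markers were all listed in each table, and Zp3, of the egg coat, led them in GV oocytes. Cabin1 had 117 to 209 reads in CabZ Het and 14 to 57 in CabZ KO oocytes, whereas Hira, at 2 to 14 reads in ZH Het and 0 to 13 in ZH KO oocytes, had too few reads to check the genotype. In CabZ 2-cell embryos Cabin1 had 215 to 443 reads in Het and 44 to 125 in KO libraries. The means there were 0.322 and 0.134 FPKM over the gene span. Zscan4d was not higher in the libraries labelled Zscan4 OE, with 4896 to 8350 reads against 8656 to 11082 in GFP libraries, so this check goes against that label as far as the counted sequence reaches, and comparisons with GFP are given by label only. The study reported more Zscan4 RNA and protein in injected than in uninjected oocytes, a stage before the embryos sequenced here. In bulk RNA, fewer cells of a type and less RNA per cell cannot be told apart.

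Crabp1 and Rarg are shown by sequence because their reads, alone among the members under the filter on low values, gave the smallest p that 4 libraries against 4 allow. Each sequence is a RefSeq promoter, from 250 bases before to 50 bases after the gene start on the gene's strand, in the build GRCm38.p6, 5′ to 3′. Capitals mark GGGCGG, the GC box, and AGGTCA, the hexamer that retinoid receptors recognise, on either strand (CCGCCC and TGACCT on the other strand).
Crabp1, chr9:54764498-54764797, plus strand: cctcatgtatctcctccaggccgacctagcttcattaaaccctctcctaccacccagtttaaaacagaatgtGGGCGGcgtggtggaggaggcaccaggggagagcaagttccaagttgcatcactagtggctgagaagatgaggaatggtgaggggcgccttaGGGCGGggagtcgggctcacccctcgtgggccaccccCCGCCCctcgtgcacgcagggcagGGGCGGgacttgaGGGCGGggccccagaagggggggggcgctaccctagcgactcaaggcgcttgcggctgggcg
Rarg, chr15:102257473-102257772, minus strand: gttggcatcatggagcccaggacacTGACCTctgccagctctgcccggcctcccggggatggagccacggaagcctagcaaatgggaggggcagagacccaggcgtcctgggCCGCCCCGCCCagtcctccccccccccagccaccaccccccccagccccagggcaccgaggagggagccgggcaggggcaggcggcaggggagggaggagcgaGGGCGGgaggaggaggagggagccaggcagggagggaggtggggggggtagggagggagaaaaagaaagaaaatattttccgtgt
The Crabp1 promoter held 5 GC boxes and no AGGTCA, and the Rarg promoter shown 3 GC boxes, a pair of which overlap, and 1 AGGTCA. Of 32851 RefSeq promoters of the same length, 35.7% held a GC box and 16.3% the hexamer. Neither printed sequence held the TATA box, TATAAA, which is in 13.6% of promoters. Another RefSeq promoter of Rarg, at chr15:102246451-102246750, held no GC box, no AGGTCA and no TATA box. The table has no entry for Crabp2.

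Crabp2 lies on chromosome 3 of GRCm38, from 87948666 to 87953376 on the plus strand, with 1322 bases of merged exons in GENCODE M21. Levels are FPKM over the whole gene span, introns included, unless exon RPKM is named. In CabZ Het GV oocytes it had 67.8, 79.7, 84.0 and 80.3 FPKM in libraries 1 to 4. In CabZ KO GV oocytes it had 18.3, 6.53, 8.30 and 4.75 FPKM. Every CabZ KO library lay below every CabZ Het library, and library 1 was the highest of the KO group and the lowest of the Het group. The Het mean was 77.9 ± 7.02 FPKM (SD, n = 4). At 9.48 ± 6.07 FPKM (SD, n = 4), the KO mean was 0.122 of it, and the log2 fold change of FPKM + 1 was -3.07. Behind these values stand 3983 to 4390 reads per Het library and 204 to 864 per KO library. Over all genes tested in this table, 0.836% were called lower in CabZ KO oocytes by the rule used throughout (limma, Benjamini-Hochberg adjusted p under 0.05 and fold change above 2 on the FPKM + 1 scale). In 9.39% every KO library lay below every Het library. Since this contrast chose the gene, nothing is read from these shares.

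The difference did not recur in ZH GV oocytes as a call. Crabp2 had 41.3, 37.8, 38.9 and 42.1 FPKM in ZH Het libraries 1 to 4. ZH KO libraries 1 to 4 had 56.5, 28.1, 26.9 and 20.4 FPKM. Libraries 2 to 4 lay below every ZH Het library and library 1 lay above them all, so the groups overlap. The log2 fold change was -0.38 (standard error 0.26, 95% interval -0.96 to 0.21), with an adjusted p of 0.247 in limma. Called lower were 7.2% of the genes tested in this table, and 10.5% were called higher. Without ZH KO library 1 the log2 fold change was -0.66 (95% interval -0.99 to -0.34) and the adjusted p of limma 0.00534, still under the fold change of 2. That library also had the lowest summed level of the 12 oocyte markers, 11775 CPM (counts of reads scaled to library size) against 22925 to 24319 in ZH Het libraries. ZH KO libraries 2 and 4 also lay below every Het library in that sum, and library 4, the next lowest, had the least Crabp2. The part of these sums in the result was not tested. Markers of granulosa and cumulus cells, of which 19 of 20 are listed, summed to 53.2 to 65.7 CPM in ZH Het and 62.7 to 117 in ZH KO libraries. Cyp19a1, the most abundant of them, had 0.258 ± 0.0162 FPKM in Het and 0.251 ± 0.0990 FPKM in KO libraries (SD, n = 4). Inha had 0.135 ± 0.135 and 1.20 ± 0.369 FPKM.

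The 2-cell embryos of the CabZ line had 16.7, 10.6, 9.31 and 25.0 FPKM of Crabp2 in Het libraries 1 to 4. The KO libraries had 32.5, 17.5, 14.4 and 9.16 FPKM. The groups overlap over nearly their whole range, the lowest and the highest library both being KO. The log2 fold change was 0.20 (standard error 0.40, 95% interval -0.70 to 1.11, adjusted p = 0.684 in limma), and -0.10 without KO library 1. Of the genes tested, 37.4% were called in this table, 20.4% lower and 16.9% higher. Summed oocyte markers, of which 12 of 12 are listed, reached 4250 to 7572 CPM in KO and 1803 to 3087 in Het embryos, and the part of this difference in the Crabp2 values was not tested.

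In injected 2-cell embryos Crabp2 was abundant in both groups. GFP libraries A to D had 99.8, 75.4, 111.8 and 100.1 FPKM. Libraries A to C labelled Zscan4 OE had 112.9, 73.3 and 113.3 FPKM. Both groups span nearly the same range, with library B the lowest in each. The log2 fold change was 0.03 (standard error 0.21, 95% interval -0.45 to 0.51, adjusted p = 0.949 in limma), and 1.44% of genes tested were called. It was -0.08 without GFP library B, -0.07 without OE library A and -0.07 without OE library C. In these 3 comparisons the lower ends of the 95% intervals, -0.96, -0.70 and -0.45, all lay above a log2 fold change of -1, the size a call needs. For ZH oocytes this bound moved past -1 with a pseudocount of 0.1 (-1.02), with no filter (-1.07), with every library shifted to 1 median (-1.11) and without any 1 Het library (-1.08 to -1.03). A miss of the threshold does not show that the groups are alike.

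**Figure D1:**
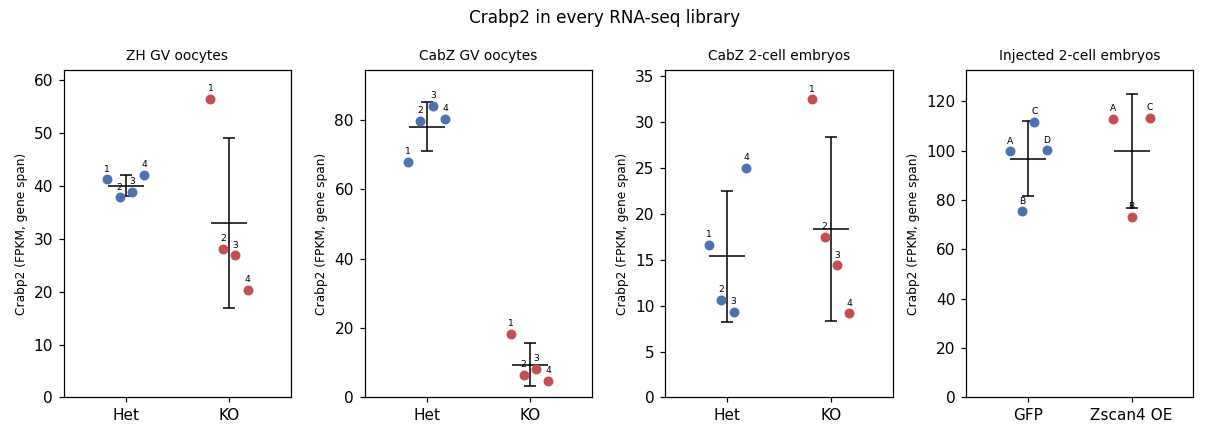
Crabp2 in FPKM over the gene span (linear axes from 0) in each library, numbered or lettered by replicate, with the mean and SD of each group in black. CabZ KO oocytes lie at 4.75 to 18.3 FPKM, below all CabZ Het oocytes, whereas the groups overlap in the other 3 panels.

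Measured per exon length, Crabp2 was the most abundant member in every group. It had 192 ± 10.1 exon RPKM (reads per kb of merged exons, scaled to library size) in ZH Het oocytes (SD, n = 4), above 98.6% of the genes ranked there. In CabZ Het oocytes the level was 278 ± 25.0 and in CabZ KO oocytes 33.8 ± 21.6 (SD, n = 4), where it stayed above 89.6% of genes. The tables were normalised separately, so levels in different tables are not tested against each other. The next member in ZH Het oocytes was Rara with 1.54 ± 0.535 (SD, n = 4), then Stra6 with 0.160 ± 0.0485 and Rarg with 0.0173 ± 0.0223, and the ranges of these 3 do not overlap. In CabZ Het 2-cell embryos Crabp1 followed Crabp2 closely, with 31.2 ± 15.5 against 54.8 ± 25.5 exon RPKM (SD, n = 4), and their ranges over libraries overlap. Within each of the 8 CabZ 2-cell libraries, Crabp2 was the higher of the pair.

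Crabp1, the close relative of Crabp2, lies on chromosome 9 from 54764748 to 54773110 on the plus strand and overlaps no other gene of GENCODE M21. In ZH GV oocytes it was found only in KO libraries. It had no read in ZH Het libraries 1 to 4. ZH KO libraries 1 to 4 had 0.951, 0.387, 0.721 and 0.359 FPKM, from 124, 52, 80 and 41 reads. Every KO library lay above every Het library. Against a floor of 3 reads in each Het library, the KO mean of 0.605 ± 0.283 FPKM (SD, n = 4) was at least 26-fold higher. The two-sided exact permutation test gave p = 0.0286, the smallest that 4 libraries against 4 allow. Among genes under the filter in this table, 21.3% had KO libraries all above the Het libraries, so such a separation was common there. Fitted with all 25053 genes and no filter, limma gave a log2 fold change of 0.67 and an adjusted p of 0.00826, under the fold change of 2 on that scale. ZH KO library 1 was highest for Crabp1 as for Crabp2. The library with the least Crabp1 was also the one with the least Crabp2, library 4.

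Crabp1 is not listed in the table of CabZ GV oocytes. In CabZ 2-cell embryos it had 2.03, 2.89, 1.92 and 5.12 FPKM in Het libraries 1 to 4. The KO libraries had 6.41, 3.38, 0.869 and 0.596 FPKM. The KO libraries spread over a wider range that takes in all Het libraries. The log2 fold change was -0.28 (standard error 0.48, 95% interval -1.37 to 0.81, adjusted p = 0.640 in limma), and 0.04 without KO library 4. Het library 4 and KO library 1 had the most Crabp1 and the most Crabp2 of the table, and KO library 4 the least of both. In injected embryos Crabp1 was low, with 0.305, 0.211, 0.206 and 0.129 FPKM in GFP libraries A to D. The libraries labelled Zscan4 OE had 0.197, 0.0347 and 0.205 FPKM. These ranges overlap, and the exact permutation test gave p = 0.286.

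Rarg, the retinoic acid receptor gamma, lies on chromosome 15 from 102234938 to 102257517 on the minus strand, and a promoter of it is the second sequence above. It was close to absent from ZH GV oocytes, at most 3 reads in any library, and is not listed for CabZ GV oocytes or injected embryos. CabZ 2-cell embryos had 0.0780, 0.251, 0.133 and 0.365 FPKM in Het libraries 1 to 4, from 14, 45, 24 and 68 reads. The KO libraries had 0.0303, 0.0636, 0.0280 and 0.0457 FPKM, from 4, 9, 4 and 6 reads. Every KO library lay below every Het library. The KO mean of 0.0419 ± 0.0165 FPKM was 0.203 of the Het mean of 0.207 ± 0.128 FPKM (SD, n = 4). An exact permutation test, two-sided, gave p = 0.0286, again the smallest possible. The KO libraries were also shallower, with 5819265 to 6330178 reads against 7947139 to 8239242. Among genes under the filter, 6.39% had all KO libraries below all Het libraries. In limma over all 24303 genes without the filter, the adjusted p was 0.0845, so Rarg did not pass a test adjusted over the table.

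Rara, the receptor alpha, lies on chromosome 11 from 98927818 to 98974942 on the plus strand with the small nuclear RNA gene Gm22061 inside it, and was the only receptor gene of the members listed in all 4 tables, always at low levels. In ZH GV oocytes it had 0.107 ± 0.0371 FPKM in Het and 0.0680 ± 0.0349 FPKM in KO libraries (SD, n = 4, exact permutation p = 0.200). The groups overlap, as they do in CabZ GV oocytes, where the means were 0.0636 ± 0.0183 FPKM in Het and 0.0735 ± 0.0339 FPKM in KO libraries (SD, n = 4). At the 2-cell stage it had 0 to 21 reads in CabZ Het and 8 to 20 in KO libraries (exact permutation p = 0.114). In injected embryos, GFP libraries A to D had 0.0153, 0.0166, 0.0109 and 0.0157 FPKM, from 8 to 24 reads. The libraries labelled Zscan4 OE had 0.0255, 0.0246 and 0.0233 FPKM, from 16 to 24 reads. All 3 lay above all GFP libraries, 1.67-fold by means, and the two-sided exact permutation test gave p = 0.0571, the smallest that 4 against 3 allow, so the design could not reach 0.05. Here 6.58% of genes under the filter had every OE library above every GFP library.

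Rbp4 and Stra6, which bring retinol to cells, were at the edge of detection. Rbp4 lies on chromosome 19 (38116620 to 38125321 in the tables, minus strand) and is listed for CabZ 2-cell embryos alone. It had 4 reads in Het library 1 and none in the other 3. KO libraries 1 to 4 had 11, 2, 4 and 30 reads. KO libraries 1, 3 and 4 lay above all Het libraries in FPKM, and library 2 did not (exact permutation p = 0.0571). Stra6, on chromosome 9 from 58063788 to 58153996 on the plus strand, overlaps Ccdc33 on the other strand and Gm16131, and without strand in the counting its reads cannot be told apart from theirs. It had 8 to 13 reads in ZH Het and 1 to 10 in ZH KO libraries (exact permutation p = 0.114), 1 to 20 in CabZ Het and 0 to 3 in CabZ KO GV libraries, and 0 to 8 and 0 to 2 in CabZ Het and KO 2-cell libraries (exact permutation p = 1.00). Of the 10 exact tests of members under the filter, 2 gave a p under 0.05, those of Crabp1 in ZH oocytes and Rarg in CabZ 2-cell embryos. The shares of genes under the filter given above count only the direction the member took, whereas the tests are two-sided. The share separated in either direction is not given, nor that with fewer libraries. Nothing is therefore read from how many members had groups that do not overlap.

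**Figure D2:**
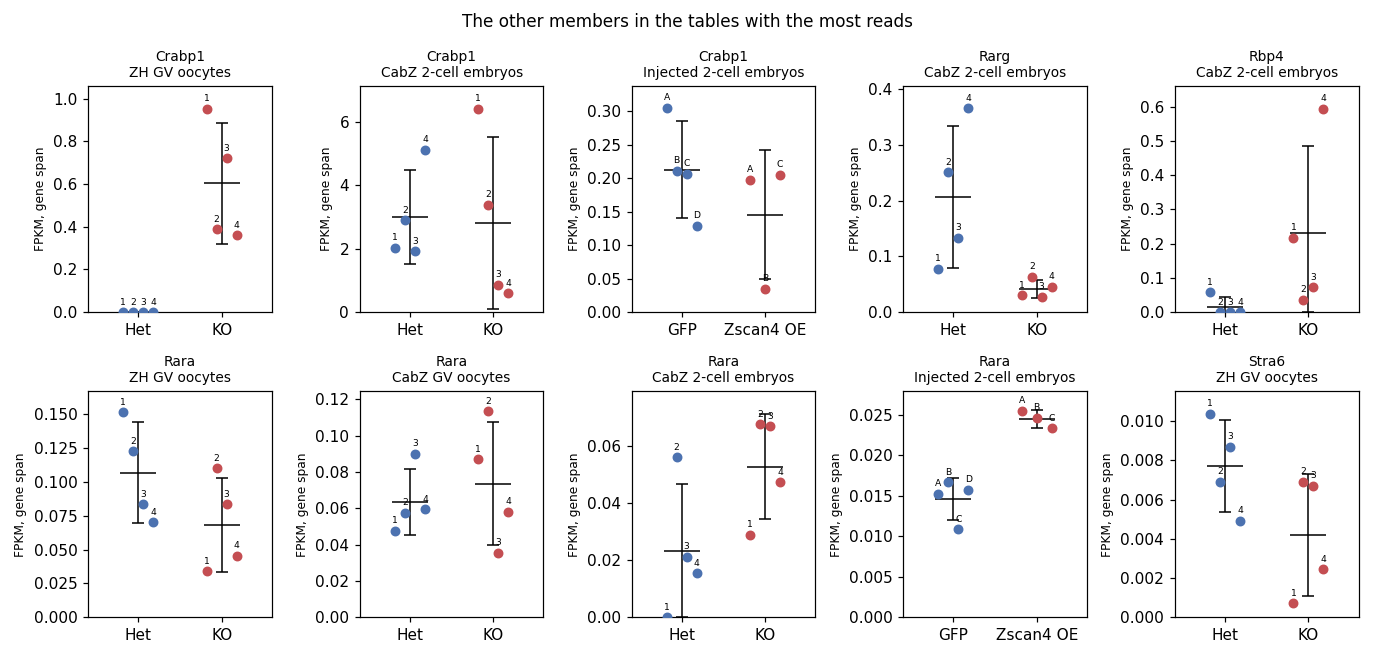
FPKM over the gene span (linear axes from 0) of Crabp1, Rarg, Rbp4, Rara and Stra6 in each library, with the mean and SD of each group in black, the bars ending at 0. The groups do not overlap for Crabp1 in ZH oocytes (Het all 0), Rarg in CabZ 2-cell embryos and Rara in injected embryos.

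The other retinoid genes number 63, in lists of uptake and storage, synthesis, delivery and breakdown, receptors with their cofactors, and responsive genes. So few were tested in GV oocytes that their calls cannot be told apart from the shares of all genes. In CabZ GV oocytes 10 of them were tested and limma called 0, against 2.9% of all genes tested. With no fold threshold, 1 had an adjusted p under 0.05, as did 883 of 6339 genes tested. Unadjusted, 4 had a p under 0.05. The share of all genes at that unadjusted p is not given, so nothing is read from such counts here or below. Their median log2 fold change was 0.13, against -0.02 over all genes tested. Rdh11, a retinol dehydrogenase and the most abundant of the synthesis genes, had 22.6 ± 1.11 FPKM in CabZ Het and 23.6 ± 0.750 FPKM in CabZ KO oocytes (SD, n = 4, log2 fold change 0.06, adjusted p = 0.720). Fabp5, which carries retinoic acid to another receptor and has processed copies in the genome that could share its reads, had 51.3 ± 5.59 FPKM in Het and 62.8 ± 16.6 FPKM in KO oocytes (SD, n = 4, log2 fold change 0.26, adjusted p = 0.394). Lpl, a lipase that also frees retinyl esters, and Bhlhe40, a transcription factor, were not called either, with log2 fold changes of -0.12 and 0.47. The 12 oocyte markers summed to 18033 to 26755 CPM in CabZ Het and 16586 to 19631 in CabZ KO oocytes, and these ranges overlap. Of the 12, limma called 0, and 1 had a log2 fold change above 0. Their median was -0.30. The summed granulosa and cumulus markers, of which 10 of 20 are listed and Amh and Foxl2 are not, stood at 58.2 to 74.4 CPM in CabZ Het and 99.7 to 146 in CabZ KO oocytes. Cyp19a1, the most abundant of them, had 0.410 ± 0.0550 FPKM in Het and 0.559 ± 0.0820 FPKM in KO oocytes (SD, n = 4). Inha went the other way, with 0.266 ± 0.184 and 0.122 ± 0.189 FPKM, at no more than 22 reads a library. Values of the other listed markers are not given, so the higher sum is not assigned to single genes. The part of these markers in the values of Crabp2 was not tested.

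In ZH GV oocytes 1 of 9 tested retinoid genes was called, against 17.7% of all genes tested. Rdh5, a retinol dehydrogenase, rose from 0.356 ± 0.128 FPKM in Het to 1.80 ± 0.482 FPKM in KO oocytes (SD, n = 4, log2 fold change 1.04, standard error 0.15, adjusted p = 0.000441 in limma). Rdh5 was not called when every library was shifted to 1 median. The count also moved with single libraries: 0 genes were called without ZH Het library 2, 0 without ZH KO library 1, 2 without ZH Het library 4 and 2 without ZH KO library 3. Fabp5 had 22.3 ± 3.12 FPKM in Het and 48.3 ± 21.4 FPKM in KO oocytes (SD, n = 4), a log2 fold change of 0.96 with an adjusted p of 0.0282 in limma, just under the fold change of a call. Its groups overlap. Rdh11 had a log2 fold change of -0.34 with an adjusted p of 0.0413 in limma, and missed a call by its fold change. With no fold threshold, 3006 of 5792 genes tested had an adjusted p under 0.05. Adh5, an alcohol dehydrogenase, had a log2 fold change of -0.11 (adjusted p = 0.485 in limma) and was not called. The median over the 9 genes was -0.11, against -0.04 over all genes tested.

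More of these genes were called in CabZ 2-cell embryos, where more genes were called in all. Of 10 tested, 5 rose and 1 fell in KO embryos, where 37.4% of all genes tested were called, and their median log2 fold change was 0.79 against -0.11 over all genes tested. Of the 11 oocyte markers tested, 6 were called higher in the same embryos and 0 lower, with a median log2 fold change of 1.46, and the part of this in the retinoid genes was not tested. Fabp5 rose from 18.8 ± 8.49 to 89.3 ± 31.7 FPKM (SD, n = 4, log2 fold change 2.23, standard error 0.37, adjusted p = 0.00101 in limma). Lpl rose from 1.18 ± 0.293 to 5.53 ± 0.872 FPKM (log2 fold change 1.58) and Adh5 from 9.79 ± 1.96 to 24.9 ± 1.18 FPKM (log2 fold change 1.28). Cyp26a1, which breaks down retinoic acid, rose from 0.954 ± 0.722 to 2.81 ± 0.951 FPKM (SD, n = 4, log2 fold change 1.00, adjusted p = 0.0180 in limma). Of the responsive genes, Bhlhe40 rose as well (log2 fold change 1.07). Rdh12, another retinol dehydrogenase, fell from 3.42 ± 1.14 to 0.968 ± 0.383 FPKM (log2 fold change -1.15, adjusted p = 0.00319 in limma), a call lost when every library was shifted to 1 median. Med1, a receptor cofactor, had a log2 fold change of -0.33 and was not called, and Rbp7, a cellular retinol-binding protein, 0.21. With every library shifted to 1 median, 5 rose and 0 fell, and with the deposited values left as they are 0 were called. Crabp1 and Crabp2, which share a list with Fabp5 and Cyp26a1, were not called.

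Crabp proteins belong to the family of intracellular lipid-binding proteins, small carriers of fatty acids and retinoids. Of 8 family members tested in CabZ 2-cell embryos, Fabp4, Fabp5 and Fabp7 rose and Fabp9 fell, so 4 of 8 were called, where 37.4% of all genes tested were. Fabp7 rose from 0.421 ± 0.382 to 5.52 ± 1.34 FPKM (SD, n = 4, log2 fold change 2.21, adjusted p = 0.000223 in limma), and Fabp4 had a log2 fold change of 1.16. Fabp9 fell from 9.44 ± 2.73 to 2.55 ± 1.81 FPKM (SD, n = 4, log2 fold change -1.69, adjusted p = 0.00615 in limma). In CabZ GV oocytes, limma called 0 of the 2 tested besides Crabp2, with 1 at an unadjusted p under 0.05, against 2.9% of all genes tested. Of these 2, Fabp5 had a log2 fold change of 0.26. The other was lower in KO oocytes, the direction of Crabp2, with a log2 fold change of -0.56. In ZH GV oocytes limma called 0 of 3, against 17.7%. Of these 3, 2 were higher in KO oocytes at an adjusted p under 0.05, but under the fold change of a call. In injected embryos limma called 0 of 5 retinoid genes other than the members, against 1.44% of all genes tested, with 1, Adh5, at an unadjusted p under 0.05 (15.5 ± 3.51 FPKM in GFP and 24.2 ± 2.81 FPKM in libraries labelled Zscan4 OE, adjusted p = 0.128).

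**Figure D3:**
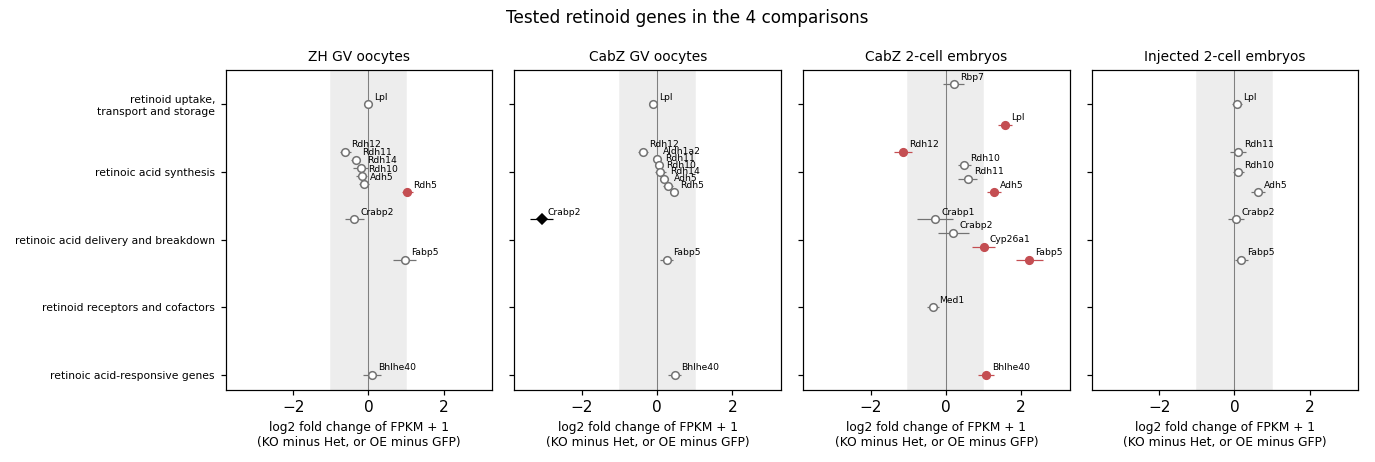
Log2 fold change of FPKM + 1 (KO minus Het, or OE minus GFP) of each tested retinoid gene, in rows by list, with its standard error; red filled points were called, the black diamond is the contrast that chose Crabp2 and is not tested, and grey shading marks changes under 2-fold. Crabp2 lies at -3.07 in CabZ GV oocytes, and 5 genes lie to the right and 1 to the left among those called in CabZ 2-cell embryos.

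The genes beside Crabp2 were not called in CabZ GV oocytes. Of 4 other genes listed within 50 kb, 2 passed the filter and limma called 0, with 0 at an unadjusted p under 0.05, where 2.9% of all genes tested were called. Hdgf, a growth factor gene, had 4.21 ± 0.113 FPKM in Het and 3.60 ± 1.33 FPKM in KO oocytes (SD, n = 4, adjusted p = 0.470 in limma), and Mrpl24, of the mitochondrial ribosome, 63.1 ± 3.02 and 66.9 ± 10.6 FPKM (adjusted p = 0.771). Hdgf was called in ZH oocytes and CabZ 2-cell embryos, where Crabp2 was not: it fell from 5.28 ± 1.34 to 1.63 ± 0.465 FPKM in ZH KO oocytes (n = 4, log2 fold change -1.25, adjusted p = 0.000548 in limma) and from 8.30 ± 1.56 to 3.35 ± 0.619 FPKM in CabZ KO 2-cell embryos (log2 fold change -1.09, adjusted p = 0.00131). Isg20l2, the nearest of them, fell in CabZ KO 2-cell embryos from 2.29 ± 0.848 to 0.263 ± 0.190 FPKM (n = 4, adjusted p = 0.00131 in limma), and Rrnad1 had 1.64 ± 0.473 and 0.684 ± 0.386 FPKM there and was not called. In all, 1 of 3 tested neighbours was called in ZH oocytes and 2 of 4 in CabZ 2-cell embryos, where 17.7% and 37.4% of all genes tested were. In injected embryos limma called 0 of 2 tested neighbours, with 0 at an unadjusted p under 0.05.

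**Figure D4:**
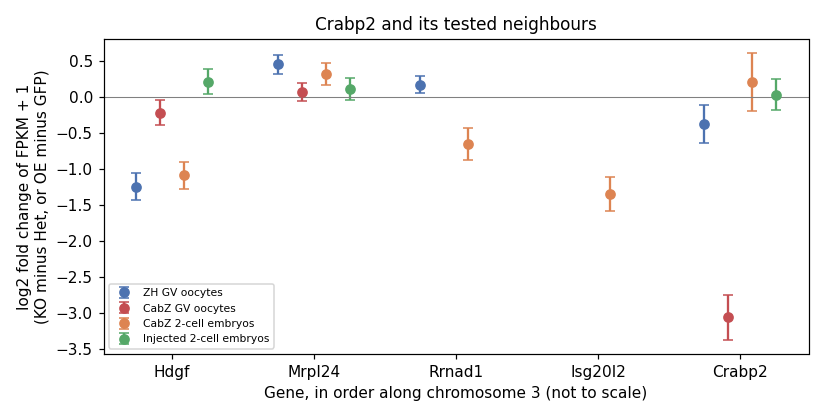
Log2 fold change of FPKM + 1 with its standard error of Crabp2 and of the genes within 50 kb that passed the filter, in the 4 comparisons; a missing point means that the gene was under the filter there. Crabp2 is lowest in CabZ GV oocytes (-3.07), where Hdgf lies at -0.22, and Hdgf is lowest in ZH GV oocytes (-1.25).

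The genes whose pattern over the 8 CabZ GV libraries was most like that of Crabp2, by Pearson's r of log2(FPKM + 1) among 6338 other genes, were Mettl23 (r = 0.988), Prss37 (0.988), Akr1b8 (0.982), Gm45871 (0.981) and Fbxl8 (0.979). All 5 had every KO library below every Het library, as 9.39% of genes tested there did, so these r values include the difference between genotypes. Akr1b8, an aldo-keto reductase, had 3.86 to 4.39 FPKM in Het and 0.153 to 1.48 FPKM in KO oocytes. Over the 8 ZH GV libraries the 5 nearest genes were others: Uqcrc2 (r = 0.910), Hist1h2bk (0.890), Nop14 (0.887), Raet1d (0.883) and Gm26969 (0.882), and 0 of them was called. The points of each r share the scaling of their libraries.

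ATAC-seq marks open DNA, and peaks were few at the members. The lists hold 43399 to 111327 peaks in CabZ Het and 19160 to 46070 in CabZ KO libraries. Within 500 bases of a start site, where 5.31 to 39.4% of genes listed for CabZ GV oocytes had a peak, there was 1 peak at a member in all 6 libraries, at Rara in Het library C (4.99-fold over the genome background, -log10 q of 5.76). In the span of Crabp2 there was 1 peak, in Het library A, at chr3:87950101-87950487, with its summit 1759 bases after the start site (3.54-fold, -log10 q of 1.84). At Crabp1, KO library C had a peak with its summit 6743 bases after the start (3.94-fold), and Het libraries A and C had peaks before it, with summits at -2101 and -3716 bases. Over the 6 gene spans, the Het libraries A to C held 8, 7 and 18 peaks and the KO libraries A to C 3, 0 and 2. Of these, 5, 5 and 8 in Het and 3, 0 and 0 in KO lay in the long span of Stra6, which overlaps Ccdc33. Over all genes listed for CabZ GV oocytes, 36.6, 52.1 and 68% had a peak in the span in Het libraries A to C. In KO libraries A to C these shares were 47.8, 27.1 and 34.9%. KO libraries B and C had the shortest lists over the genome. KO library A had more peaks than Het library A over the genome, 46070 against 43399, and fewer in these spans, 3 against 8. The labels do not say that letters pair the libraries. At a -log10 q of at least 5, neither library had a peak in these spans, and only Het library C did, at Rara and Rarg. Nothing is therefore read from the 3 against 8.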

How the data were processed

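RNA-seq reads were trimmed, aligned to GRCm38 (mm10) with STAR 2.5.3a and quantified in Partek Flow by the authors. The deposited FPKM of the ZH and injected-embryo tables are, from their values, reads per kb of gene span scaled to library size, plus a constant, the table's minimum. The deposited CabZ values are a score, reads divided by the span more than once and scaled to equal totals, and not the FPKM the planned tests assumed. After the minimum was subtracted, FPKM and reads were restored from them, and 76.7 to 83.9% of values under 30 reads in CabZ libraries, and at most 86.9% in the others, came out within 0.05 of a whole read. Read counts here are such restored values, so count tests were not used. Exon levels used GENCODE M21.

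Genes averaging 1 FPKM or more were fitted with limma 3.58.1 (R 4.3.3) on log2(FPKM + 1), each table apart, which understates changes of low genes. Members under that filter had two-sided exact permutation tests of mean FPKM (scipy 1.17.1), 10 in all, unadjusted. A floor of 3 reads stands for 0, and floors cover counting error only. The fits were tested on simulated data. Members and lists were chosen with earlier results of these data known, and 1 gene of the lists is not reported here. Named genes are the members, called list genes, the 2 most abundant of each list, genes within 50 kb of Crabp2, and the 5 most alike.

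ATAC-seq peaks were called by the authors in each library with MACS2 after Bowtie 2.3. The deposited peak lists give fold enrichment as a ratio, -log10 q-values and -log10 p-values, and a score, 10 times -log10 q.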

Additional observations from a re-analysis of the deposited data

Results flagged for a closer look

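In 4 of 30 groups of 4 libraries, 1 library stood far from the other 3, and chance alone gives about 1 in 20. In each case it was the only library of its group with a read of the gene. Where the other 3 are at 0, any read sets a library apart, so nothing is read from 4 of 30 against that rate. Rarg had 0.00334 FPKM in ZH KO oocyte library 3, from 1 read. Rbp4 had 0.0578 FPKM in CabZ Het 2-cell library 1, from 4 reads. Stra6 had 0.0112 FPKM in CabZ Het 2-cell library 2, from 8 reads, and 0.00348 FPKM in CabZ KO 2-cell library 3, from 2 reads.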

How the results depend on the processing

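Crabp2 was not called in ZH oocytes, CabZ 2-cell embryos or injected embryos under any setting that keeps the fold threshold. Its log2 fold change over leave-one-out fits ran from -0.66 to -0.19 in ZH oocytes, where the adjusted p passed only without ZH KO library 1, from -0.10 to 0.47 in CabZ 2-cell embryos (-0.10 without KO library 1) and from -0.083 to 0.24 in injected embryos (the lowest without GFP library B, -0.07 without OE library A or C). In CabZ GV oocytes it ran from -3.41 to -2.83, and was -0.73 with the deposited values left as they are. Other reversals were Rara in CabZ GV oocytes without KO library 2 (difference -0.00342 to 0.0226 FPKM over such fits), Crabp1 in CabZ 2-cell embryos with deposited values (0.008) or without KO library 4 (-0.694 to 0.0443 without 1 library), and Stra6 there without Het library 2 (-0.00286 to 0.000871 FPKM). Crabp1 in ZH oocytes and Rarg in CabZ 2-cell embryos kept their direction. Their exact p became 0.0571 without any 1 library, the smallest possible there, and for Rarg 0.0857 with deposited values, with which that of Rbp4 in CabZ 2-cell embryos became 0.0286. Of 10 tests under the filter, 3 had no overlap, and 3 to 5 without 1 replicate number (5 without replicate 2 or 4). Nothing is read from these counts. The labels do not say that replicate numbers pair the samples. Correlations of same-numbered libraries ran from -0.407 to 0.395, and those of other pairs from -0.436 to 0.475. These values cannot settle whether same-numbered libraries share a litter or day. With the replicate number as a block, Crabp2 in ZH oocytes kept -0.38 (adjusted p = 0.222 in limma), the exact p of Crabp1 and Rarg became 0.125, and calls numbered 1016, 184, 2886 and 2 in the ZH, CabZ GV, CabZ 2-cell and injected tables, so the block lowered the last from 62.

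Called genes in ZH oocytes (1023) became 1645 with a pseudocount of 0.1, 578 with a filter of 5 FPKM, 1677 with the ratio of means, 3006 with no fold threshold and 869 to 1152 without 1 library. In CabZ GV oocytes (184) they became 328, 109, 354, 883 and 167 to 220 in that order, and 9 with deposited values. In CabZ 2-cell embryos (2914) they became 1650 with the 5 FPKM filter, 317 with deposited values, 4376 with no fold threshold and 2680 to 3164 without 1 library. In injected embryos (62) they became 5 with no filter, and 18, 20, 32, 27 and 100 without GFP library A, B or C or OE library B or C. Called retinoid genes in ZH oocytes (1) became 0 with the 5 FPKM filter or the median shift, 2 scaled to the table's reads or with the ratio of means, 4 with no fold threshold and 0 to 2 without 1 library. In CabZ GV oocytes (0) 1 was called with no fold threshold. In CabZ 2-cell embryos (6) 2 were called with the 5 FPKM filter, 0 with deposited values and 5 to 6 without 1 library. The median shift moved the median of all genes from -0.04 to -0.19 in ZH oocytes, from -0.11 to 0.13 in CabZ 2-cell embryos and from 0.03 to 0.13 in injected embryos, and scaling to the table's reads moved that of ZH oocytes to 0.08. Higher and lower calls in ZH oocytes were 606 and 417, 471 and 627 with the median shift, and 824 and 362 scaled to the table's reads. In CabZ 2-cell embryos they were 1320 and 1594, 1757 and 1126 with the median shift, and 211 and 106 with deposited values. In CabZ GV oocytes they were 131 and 53, and 8 and 1 with deposited values. Over the 6 members in 6 libraries, 5 pairs of member and library had a peak within 2000 bases of a start site, against 1 within 500. The deposited CabZ values are small: Crabp2 in 2-cell embryos averaged 0.140 in Het and 0.246 in KO libraries, against 15.4 and 18.4 FPKM. Adding 1 to values this small shrinks fold changes, and its part in the results with deposited values was not tested. The cause of the other changes was not tested, and at a few reads a library, Rarg, Rbp4 and Stra6 are limited by depth.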
